A study of Mus musculus with 8 samples.

Results

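BRG1 regions without NANOG were sites where BRG1 was detected at day 5 of reprogramming and the FLAG-tagged NANOG protein was not. They were chosen by peak calls: the FLAG and BRG1 peaks of either arm were merged where they overlapped or touched, which gave 93352 regions. Of these, 58613 held a BRG1 peak, and the 5479 with no FLAG peak of either arm were kept. The members fell into 2235 regions with a BRG1 peak in NanogWT only, 2606 with one in NanogBiD only and 638 with one in both arms, called common BRG1 here. The rule used the FLAG and BRG1 lists, so these numbers describe the selection. "Without FLAG" means that no peak passed the peak caller's minimum score, not that the protein was absent.

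The data were CUT&Tag libraries of mouse embryonic fibroblasts (MEFs) on day 5 after retroviral delivery of reprogramming factors. CUT&Tag uses an antibody to bring a transposase to a chromatin protein or mark, and the DNA cut there is sequenced. Every culture received Oct4. The arm called NanogWT also received wild-type Nanog (labelled Nanog+Oct4), and the arm called NanogBiD received NanogN70 (labelled NanogN70+Oct4), taken here to be the fusion that the study describes, of Nanog with the part of the BAF subunit SS18 that binds BRG1. Each arm was profiled with antibodies to FLAG, BRG1 (SMARCA4), H3K27ac and H3K4me1, which made 8 groups of 1 library each. Per the methods the MEFs came from mid-gestation embryos carrying an Oct4-GFP reporter, and both factors came from retroviral vectors, so cells with and without each factor may have been profiled together. The methods state that replicates were merged, while the reporting summary of the study states for CUT&Tag that there was a single experiment without biological replication, and in a general entry that all experiments were replicated. No spread between cultures could be measured, no difference was tested, and the 95% intervals given below are Wilson intervals that cover counting error only.

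BRG1 is the ATPase of the BAF complex, the mammalian form of SWI/SNF. It uses ATP to slide or evict nucleosomes, and in most cell types it occupies enhancers and active promoters, where it is brought by DNA-binding factors, by acetylated histones or by both. In fibroblasts, AP-1 factors are well known partners of BAF at enhancers. H3K4me1 marks enhancers and the flanks of promoters, and H3K27ac marks those enhancers and promoters that are active. NANOG is a homeodomain factor of pluripotent cells, and POU5F1, the product of Oct4, recognises the octamer.

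The library labels were set against promoters of marker genes. H3K27ac lay at promoters of 7 of 8 fibroblast genes in each arm. Among 8 pluripotency genes it lay at promoters of 1 in NanogWT and 2 in NanogBiD. The lists held from 30859 to 74782 peaks, and the lowest peak score was 50 in each. The number of tags behind a list is not in the files. According to the reporting summary, both the FLAG and the BRG1 libraries of NanogWT had fewer read pairs than those of NanogBiD, so for both targets depth and arm cannot be told apart.

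The strongest distal members of each class are shown first, since their sequences can be read beside the motif counts given further on. They are the 3 regions of each class away from promoters with the highest BRG1 score, where the score is the peak caller's measure of significance and the lower of both arms was used for common BRG1. Each line gives 50 bases either side of the BRG1 summit in the mm10 build. Capitals mark any match to 15 consensus motifs that were searched on both strands.
NanogWT-only, intron of Napepld, chr5:21680990-21681090, plus strand: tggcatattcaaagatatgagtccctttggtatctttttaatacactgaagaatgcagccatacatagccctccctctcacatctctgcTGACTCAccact
NanogWT-only, intron of Arnt2, chr7:84396904-84397004, plus strand: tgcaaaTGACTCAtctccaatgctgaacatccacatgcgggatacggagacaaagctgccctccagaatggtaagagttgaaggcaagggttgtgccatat
NanogWT-only, intron of Vrk3, chr7:44770072-44770172, plus strand: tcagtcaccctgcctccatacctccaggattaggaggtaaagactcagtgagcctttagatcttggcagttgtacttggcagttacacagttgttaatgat
NanogBiD-only, intergenic near Gm11808, chr4:3967736-3967836, plus strand: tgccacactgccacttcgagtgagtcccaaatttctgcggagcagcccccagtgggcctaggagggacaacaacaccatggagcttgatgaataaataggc
NanogBiD-only, intron of Gm13481, chr2:48441444-48441544, plus strand: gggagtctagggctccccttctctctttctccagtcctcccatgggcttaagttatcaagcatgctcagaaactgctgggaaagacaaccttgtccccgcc
NanogBiD-only, intron of Clec2e, chr6:129095412-129095512, plus strand: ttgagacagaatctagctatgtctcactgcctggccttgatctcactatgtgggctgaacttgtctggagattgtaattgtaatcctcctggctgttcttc
common, intron of Xkr6, chr14:63681705-63681805, plus strand: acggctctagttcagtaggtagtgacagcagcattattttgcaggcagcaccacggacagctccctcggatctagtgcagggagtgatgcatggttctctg
common, intron of Wdr25, chr12:108994753-108994853, plus strand: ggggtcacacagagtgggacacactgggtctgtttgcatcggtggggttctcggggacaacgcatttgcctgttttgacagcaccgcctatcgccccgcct
common, intergenic near BC049739, chr6:32710490-32710590, plus strand: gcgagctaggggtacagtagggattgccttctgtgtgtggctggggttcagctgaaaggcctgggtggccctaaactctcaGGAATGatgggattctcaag

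Of these 9 windows, 2 held an AP-1 match, 1 held a TEAD match and none held the NANOG-like homeobox or octamer letters. Both AP-1 matches were in NanogWT-only windows, in introns of Napepld (a lipid-processing enzyme) and Arnt2 (a basic helix-loop-helix factor). The window near BC049739, a lincRNA gene whose start lay 41.7 kb away, held the TEAD match.

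The common member in an intron of Xkr6 had summits of 24 tags in NanogWT and 25 in NanogBiD, and its region overlapped no H3K27ac or H3K4me1 peak of either arm. Its nearest FLAG peak lay 27.9 kb away. The member in an intron of Wdr25 had 20 tags in each arm and H3K4me1 in both arms. The one near BC049739 had 14 tags in NanogWT and 16 in NanogBiD, with H3K4me1 in NanogBiD only. None of these 3 carried H3K27ac in either arm, although their BRG1 summits were above the median of the common members, which was 11 tags in NanogWT and 10 in NanogBiD.

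Among the strongest distal members found in a single arm, the NanogWT-only region in Napepld had 14 tags and both marks in both arms. The Arnt2 region had 13 tags with H3K4me1 alone in both arms. The Vrk3 region, in an intron of a kinase gene, had 14 tags and no mark. In NanogBiD, the region 5.81 kb from Gm11808 had 16 tags and H3K4me1 alone in both arms, as did the Gm13481 region with 12 tags. The Clec2e region, in a gene of a lectin-like receptor family, had 11 tags in NanogBiD and carried both marks in NanogWT only. H3K27ac was thus found at 2 of the 9 strongest distal members, and H3K4me1 at 7.

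The members were a small share of BRG1 regions, and the share differed by class. In NanogWT-only BRG1, 2235 of 5691 regions had no FLAG peak, or 39.3% (95% interval 38 to 40.5). In NanogBiD-only BRG1 it was 2606 of 28163, or 9.25% (8.92 to 9.60), and in common BRG1 it was 638 of 24759, or 2.58% (2.39 to 2.78). NanogWT-only BRG1 made up 40.8% of the members and NanogBiD-only BRG1 47.6%, against 9.71% and 48.0% of all BRG1 regions. Because the rule used these lists, nothing is read from that contrast.

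Members sat low in the range of BRG1 signal. The median summit height was 9 tags in both single-arm classes, with upper quartiles of 11 tags in NanogWT-only and 10 in NanogBiD-only members. With FLAG, the medians were 10 tags in NanogWT-only and 11 in NanogBiD-only regions, and 14 and 16 tags in NanogWT and NanogBiD at common regions. BRG1 scores were under 60 in every arm with a peak at 2573 members (47.0%), close to the lowest score of 50. The tallest member had 49 tags, in a common region. Members were also shorter, with median lengths of 643 bp, 539 bp and 864 bp in NanogWT-only, NanogBiD-only and common regions, against 1016 bp, 1027 bp and 1562 bp with FLAG.

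Over all BRG1 regions, the taller the summit, the smaller was the share without FLAG. At 7 or fewer tags 27.3% of regions had no FLAG peak, at 12 to 14 tags 6.71%, and at 20 or more tags 0.606%, which was 71 of 11718 regions. By class, NanogBiD-only regions went from 21.2% to 0.965% between the lowest and highest bins, and common regions from 9.52% at 8 to 11 tags to 0.300% at 20 or more. NanogWT-only regions went from 49.8% to 29.5% (20.5 to 40.4) of the 78 tallest. The rule used these FLAG and BRG1 calls, and both NanogWT libraries had fewer read pairs, so the shares are given as a description.

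**Figure D1:**
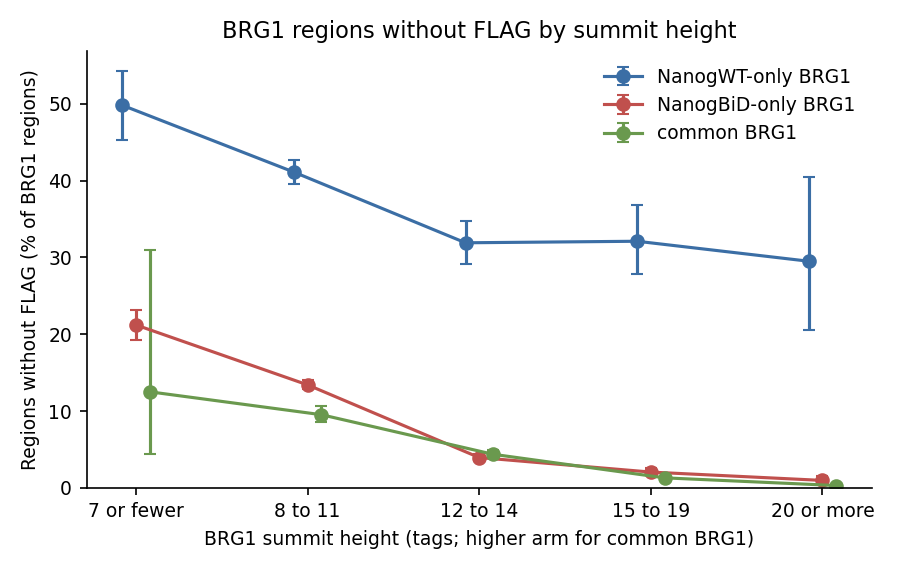
The y axis gives the share of BRG1 regions with no FLAG peak in percent and the x axis the BRG1 summit height in tags, for the 3 BRG1 classes, with Wilson 95% intervals as bars. NanogWT-only regions stay at 29.5% or above in every bin, while NanogBiD-only and common regions drop to 0.965% and 0.300% at 20 or more tags.

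At the edge of the rule, 3 members had a FLAG peak within 10 bp without touching it, and their BRG1 summits were 7 to 8 tags high. Just outside, 6 BRG1 regions overlapped a FLAG peak by 10 bp or less, with summits of 6 to 11 tags. Most members were further off: the median distance to the nearest FLAG peak was 5543 bp for NanogWT-only, 6438 bp for NanogBiD-only and 7508 bp for common members. Within 1 kb there was a FLAG peak for 14.5%, 11.7% and 14.3% of them, and 33 members lay more than 100 kb from any. On the FLAG side, 1761 BRG1 regions (3.31% of those with FLAG) were kept out of the members by FLAG peaks that scored under 60.

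Where BRG1 was found in both arms, its summits at the members were slightly lower in NanogBiD. The median log2 ratio of NanogBiD over NanogWT was -0.13 (quartiles -0.36 and 0.15), and the summit was lower in NanogBiD at 335 of 638 regions, equal at 100 and higher at 203. At common regions with FLAG the median was 0.14, and 58.3% were higher in NanogBiD. A difference of at least 2-fold upwards was seen at 2 members and downwards at 4, against 7.39% and 0.464% of all common BRG1 regions. Heights were not scaled to depth, and summit height was part of the contrast the rule used, so the ratios are given as a description.

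Position relative to genes was not used by the rule. Promoters, taken as 2 kb either side of an annotated start site, cover 10.9% of chromosomes 1 to 19 and X. They held 669 of 2235 NanogWT-only members, or 29.9% (28.1 to 31.9), 545 of 2606 NanogBiD-only members, or 20.9% (19.4 to 22.5), and 326 of 638 common members, or 51.1% (47.2 to 55). Common members were thus at promoters more often than those of a single arm. The gap depended on the peaks kept. With summits of at least 15 tags in every list, FLAG included, the shares were 61.2%, 40.6% and 73% in the same order. That setting also counted regions whose FLAG peaks were lower. Members of 15 to 19 tags under the full lists gave 39.6% (31.7 to 48.0), 26.1% (18.1 to 36.2) and 62.4% (52.2 to 71.5). With every peak used, the same classes with FLAG gave 29.1%, 14.6% and 49.2%, so the order of the classes was alike. NanogBiD-only members lay at promoters more often than their counterparts with FLAG. Away from promoters, summits of members lay in introns in 37.4%, 39.1% and 23.0%, between genes in 29.3%, 37.1% and 23.5%, and in exons in 3.45%, 2.92% and 2.35% of NanogWT-only, NanogBiD-only and common regions.

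The histone lists were not used by the rule, and with every peak used both marks were found less often at members than at BRG1 regions with FLAG. H3K27ac overlapped 42.0% (38.2 to 45.9) of common members in NanogWT and 48.3% (44.4 to 52.2) in NanogBiD, against 85.0% and 90.2% of common regions with FLAG. At NanogWT-only members it overlapped 30.1% in NanogWT and 24.8% in NanogBiD, against 62.8% and 47.9% with FLAG. At NanogBiD-only members the shares were 12.7% and 20%, against 17.8% and 42.1%. In each class and arm the interval for members lay below that for regions with FLAG.

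Marks were assigned over the whole region, and regions with FLAG, which include the merged FLAG peaks, were longer. With marks counted only within 100 bp of the BRG1 summit, a window of the same length in both sets, H3K27ac in NanogWT was found at 40.8% (37.0 to 44.6) of common members and 83.6% (83.1 to 84.0) of common regions with FLAG. In the arm with BRG1 it was 29.6% against 61.5% for NanogWT-only and 19.5% against 40.9% for NanogBiD-only BRG1. The size of the difference depended on the peaks kept. Every list was first limited to its 20000 peaks of highest score. H3K27ac in NanogWT was then found at 78.1% (76.0 to 80.1) of common regions without FLAG and 84.7% with FLAG. With summits of at least 15 tags in every list the shares were 69.6% and 91.8%. Both settings also dropped FLAG peaks, so regions with a FLAG peak in the full lists could count as without FLAG. Common members of 15 to 19 tags under the full lists had 53.8% (43.7 to 63.5), against 86.9% (86.1 to 87.7) with FLAG. H3K27ac in NanogWT at NanogBiD-only BRG1 turned direction under 4 of 10 alternatives, which also dropped or shortened FLAG peaks. With a score of at least 100 in every list, regions without FLAG had 27% and regions with FLAG 20.2%. In NanogBiD at NanogWT-only BRG1 it turned with the 20000 highest-scoring peaks, at 45.1% and 42.6%.

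H3K4me1 was called more often than H3K27ac at members in each class and arm. It overlapped 54.0% of NanogWT-only members in NanogWT and 36.5% in NanogBiD, 35.8% and 33.3% of NanogBiD-only members, and 64.3% and 58.8% of common members. With FLAG the shares were 76.8% and 55.3%, 40.5% and 44.4%, and 84.3% and 79.9%. The gap to regions with FLAG was smallest for H3K4me1 at NanogBiD-only BRG1 in NanogWT, where 35.8% (34.0 to 37.7) stood against 40.5% (39.9 to 41.1). Within 100 bp of the summit these became 34.6% (32.8 to 36.5) and 36.7% (36.2 to 37.3), whose intervals overlapped. This difference turned direction under 5 of 10 alternatives. With a score of at least 100 in every list, regions without FLAG had 35.4% (32.3 to 38.7) and regions with FLAG 27.7%. With summits of at least 15 tags the shares were 45.8% (41.6 to 50.1) and 39.8%. Both of these settings also dropped FLAG peaks, so the regions without FLAG were not the same set. In NanogBiD the difference turned under 3, with intervals that overlapped, and at NanogWT-only BRG1 in NanogBiD under 1. For H3K4me1 at NanogBiD-only BRG1 the direction was thus not stable. The order of the marks was not stable. H3K27ac was the more frequent one in 15 of 60 combinations of class, arm and alternative, such as common members in NanogWT with the 20000 highest-scoring peaks, where it was at 78.1% and H3K4me1 at 41.5%.

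**Figure D2:**
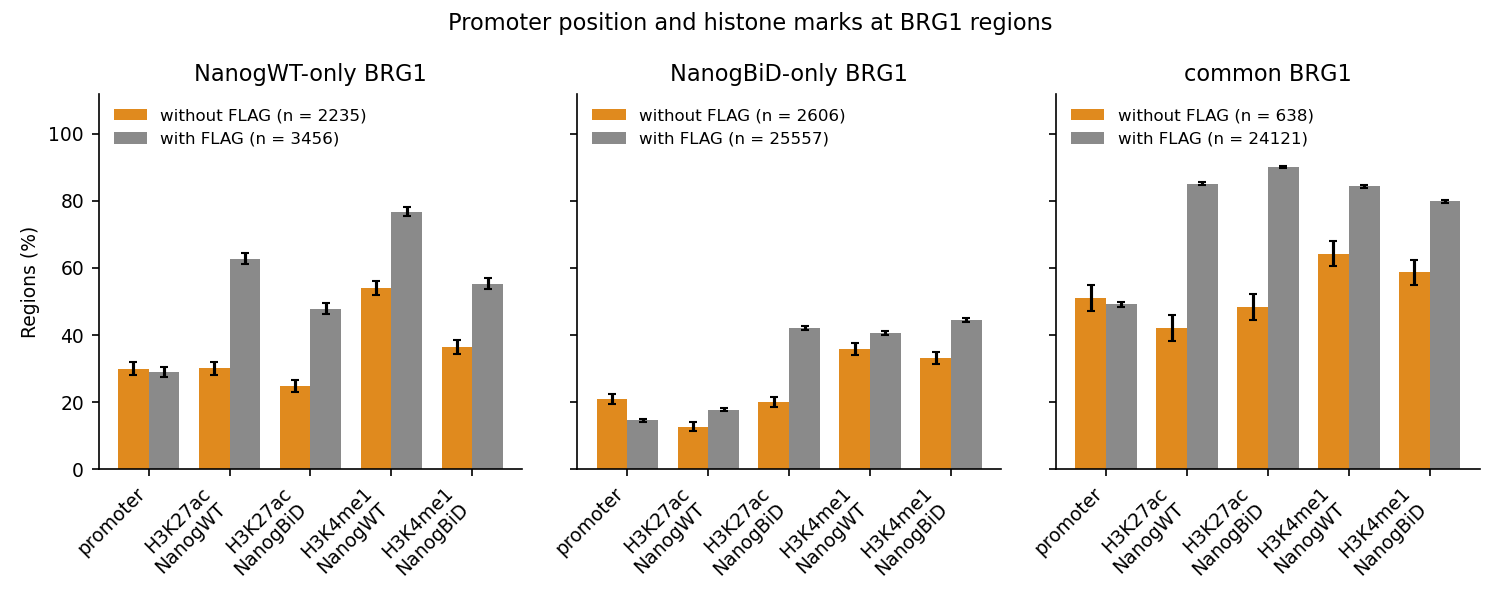
The y axis gives the percent of BRG1 regions at promoters or with a peak of H3K27ac or H3K4me1 in each arm, for regions without FLAG (orange) and with FLAG (grey), 1 panel for each BRG1 class, with Wilson 95% intervals as bars. Promoter shares are alike in both sets for NanogWT-only and common BRG1, while common regions have H3K27ac in NanogBiD at 48.3% without FLAG and 90.2% with FLAG.

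The marks occurred in different combinations as well. In the arm with BRG1, H3K4me1 without H3K27ac, the pattern of primed elements, was found at 31.7% of NanogWT-only members and 21% of NanogBiD-only members, and at 32.6% of common members in NanogWT and 24.5% in NanogBiD. At common regions with FLAG the same combination was found at 10.5% and 5.03%, while at NanogWT-only and NanogBiD-only regions with FLAG it was found at 25.5% and 18.3% in the arm with BRG1, closer to the members. No peak of either mark in either arm overlapped 33.0% of NanogWT-only, 48.3% of NanogBiD-only and 17.1% of common members, against 8.19%, 32.1% and 1.80% with FLAG. In all, 38.4% of the members lay at sites with no peak in the histone lists.

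Because members had low BRG1 summits, the marks were set side by side at like heights, H3K27ac first. In NanogBiD-only BRG1 with 8 to 11 tags, H3K27ac in NanogBiD overlapped 19.6% (17.9 to 21.5) of members and 30.7% (29.9 to 31.5) of regions with FLAG. With 15 to 19 tags the shares were 29.5% (21 to 39.8) and 60.2% (58.7 to 61.7). In common BRG1 with 15 to 19 tags, H3K27ac in NanogBiD overlapped 52.7% (42.6 to 62.5) of members and 92.4% (91.8 to 93.0) of regions with FLAG. NanogWT-only regions of 8 to 11 tags carried H3K27ac in NanogWT at 27.3% of members and 59.0% with FLAG. In these bins the difference was present at like BRG1 height. For H3K27ac in NanogWT at NanogBiD-only BRG1 it was seen at low summits, with 12.3% (10.9 to 13.8) of members and 15.9% (15.3 to 16.6) with FLAG at 8 to 11 tags, the bin of 1897 of the 2606 members. It was not seen at taller ones, where 12 to 14 tags gave 20.5% (15.9 to 26.1) of members and 19% (18 to 20) with FLAG, and 15 to 19 tags gave 20.5% (13.3 to 30) and 21.3% (20.1 to 22.5). In the bin of 20 or more tags the intervals of NanogWT-only regions overlapped, at 52.2% (33.0 to 70.8) of 23 members and 67.3% (54.1 to 78.2) of 55 regions with FLAG. For H3K4me1 the difference at like height was clear in common BRG1 and, up to 14 tags, in NanogWT-only BRG1. In NanogWT-only BRG1 of 15 to 19 tags the intervals for H3K4me1 in NanogBiD overlapped, at 42.5% (34.5 to 51.0) of members and 52.3% (46.5 to 58.0) with FLAG. At 20 or more tags the intervals overlapped in both arms, and in NanogBiD the shares were 43.5% and 38.2%. H3K4me1 in NanogWT overlapped 54% (51.5 to 56.5) of NanogWT-only members of 8 to 11 tags and 78% (76.2 to 79.7) with FLAG, and in common BRG1 of 15 to 19 tags it overlapped 63.4% (53.3 to 72.5) of members and 83.6% (82.7 to 84.5) with FLAG. In NanogBiD-only BRG1, H3K4me1 in NanogWT differed little at 8 to 11 tags, with 35.7% (33.6 to 37.9) of members and 40% (39.1 to 40.8) with FLAG. Intervals overlapped at 12 to 14 tags, with 40.6% (34.6 to 46.9) and 40.2% (38.9 to 41.4), and at 15 to 19 tags. H3K4me1 in NanogBiD, the arm with BRG1, differed more. It overlapped 33.6% (31.5 to 35.8) of members and 40.5% (39.6 to 41.3) with FLAG at 8 to 11 tags. At 12 to 14 tags the shares were 34.7% (29.0 to 41.0) and 44.9% (43.7 to 46.2), and at 15 to 19 tags 36.4% (27.1 to 46.8) and 50.1% (48.6 to 51.6).

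**Figure D3:**
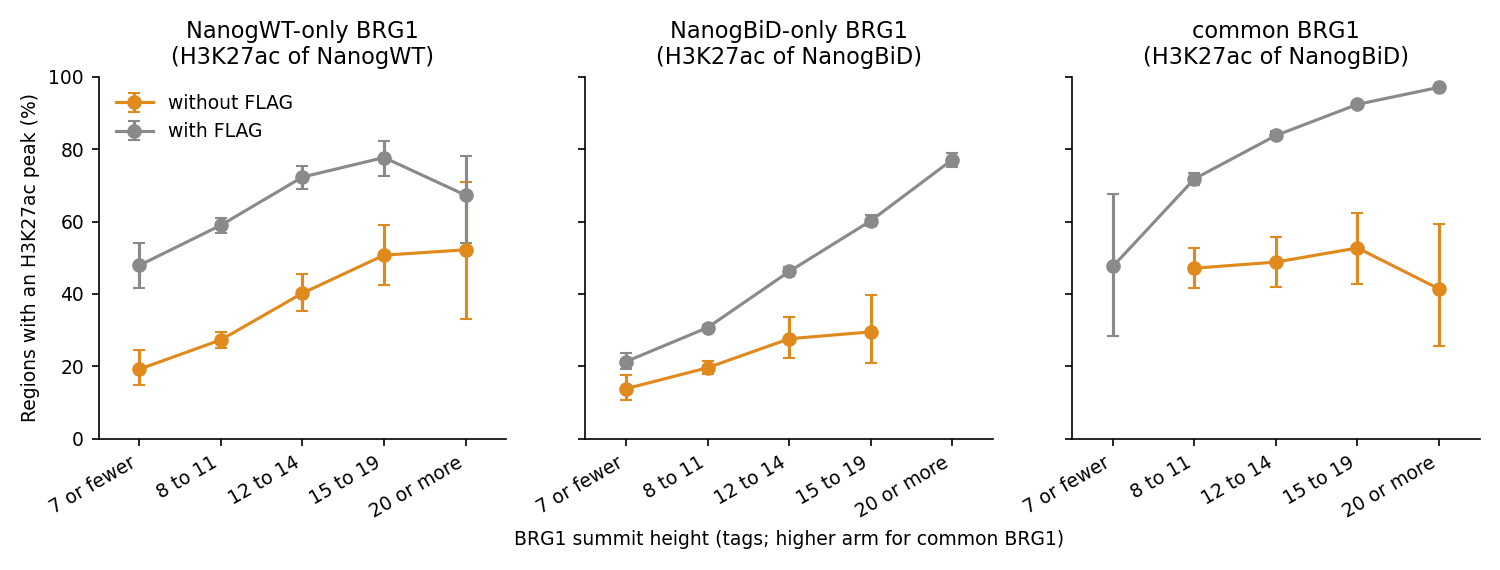
The y axis gives the percent of BRG1 regions with an H3K27ac peak in the arm named above each panel and the x axis the BRG1 summit height in tags, without FLAG (orange) and with FLAG (grey), with Wilson 95% intervals and bins under 20 regions left out. In common BRG1 the share with FLAG climbs to 97.1% at 20 or more tags, and that without FLAG stays between 41.4% and 52.7%.

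H3K27ac differed between the arms in the same direction as BRG1 at the single-arm members. A mark was called gained where NanogBiD alone had a peak and lost where NanogWT alone had one. Over all BRG1 regions H3K27ac was gained at 17.0% and lost at 4.99%. NanogBiD-only members gained it at 11.1% (9.90 to 12.3) and lost it at 3.76% (3.10 to 4.56). NanogWT-only members gained it at 7.79% (6.75 to 8.97) and lost it at 13.1% (11.7 to 14.5), above the share lost over all BRG1 regions and below the 23.6% (22.3 to 25.1) of NanogWT-only regions with FLAG. Gains at NanogBiD-only members were thus below the share over all BRG1 regions, and well below the 27.4% of NanogBiD-only regions with FLAG. Common members gained H3K27ac at 13.3% and lost it at 7.05%, a difference of 6.27 percentage points. This difference became -0.98 when the lists were limited to their 20000 highest-scoring peaks and also when summits of at least 15 tags were required. Both settings dropped FLAG peaks too, so the regions were not the same set. The direction was not stable across these settings.

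H3K4me1 was lost more often than gained in all 3 classes when every peak was used. This did not hold in all of them when every list was cut to the same length. Over all BRG1 regions it was gained at 10.5% and lost at 12.7%. NanogWT-only members lost it at 23.1% (21.4 to 24.9) and gained it at 5.59% (4.71 to 6.62). NanogBiD-only members lost it at 12.5% (11.3 to 13.8) and gained it at 9.98% (8.88 to 11.2), both near the shares over all BRG1 regions. Common members lost it at 15.4% and gained it at 9.87%. There were 72242 H3K4me1 peaks and 35452 H3K27ac peaks in NanogWT, against 57156 and 42598 in NanogBiD, so more H3K4me1 was called in NanogWT and more H3K27ac in NanogBiD over the whole genome. With each list limited to its 20000 highest-scoring peaks, the difference of gained minus lost went from -17.54 to -0.02 percentage points in NanogWT-only, from -2.53 to 5.48 in NanogBiD-only and from -5.49 to 5.55 in common regions. The FLAG and BRG1 lists were cut as well, so these were other sets of regions, which could hold a FLAG peak in the full lists. The direction for NanogBiD-only members also turned with a BRG1 score of at least 100, to 4.04.

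The arms also differed by position. At promoters, NanogWT-only members had H3K27ac gained at 10.6% and lost at 11.4%, while away from promoters the shares were 6.58% and 13.8%. NanogBiD-only members gained H3K27ac at 17.1% of promoter regions and 9.46% of distal ones, and lost it at 4.4% and 3.59%. NanogBiD-only regions with FLAG gained it at 27.4% of both promoter and distal regions and lost it at 3.67% and 2.94%, so gain was less frequent at members in both positions. At NanogWT-only promoters with FLAG, H3K27ac was gained at 9.44% (7.79 to 11.4) and lost at 15.1% (13.0 to 17.5), intervals that overlap those of the members, 8.5 to 13.2 for gain and 9.17 to 14 for loss. Distal NanogWT-only members lost H3K4me1 at 25.6% (23.5 to 27.8), and distal NanogWT-only regions with FLAG lost it at 29.8% (28.1 to 31.7) and H3K27ac at 27.1%, so neither loss was particular to the members.

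Base composition was measured around the BRG1 summit. The mean GC share of the 101 bp window was 52.3% for NanogWT-only, 47.2% for NanogBiD-only and 55.6% for common members, against 50.4%, 42.7% and 53.0% with FLAG. Bases masked as repeats made up 14.1%, 14.6% and 9.04% of the windows of members, about as in regions with FLAG (13.1%, 13.8% and 9.60%), and 24.7%, 25.8% and 23.8% of windows 1 kb away. BRG1 regions without FLAG thus were not richer in repeats than their surroundings. A summit was called CpG-rich where the 501 bp around it had a GC share of at least 50% and a ratio of observed to expected CpG of at least 0.6. This held for 10.7% (9.46 to 12) of NanogWT-only, 5.80% (4.96 to 6.76) of NanogBiD-only and 25.8% (22.5 to 29.3) of common members. With FLAG it held for 11.9%, 1.60% and 32.4%.

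CpG-rich promoters are as a rule those of housekeeping and developmental genes, and where such genes are active the promoters carry H3K27ac. Among common BRG1 regions with FLAG, 57 of 7533 CpG-rich promoter regions had no H3K27ac peak in either arm, or 0.757% (0.585 to 0.979). Among common members it was 48 of 155, or 31.0% (24.2 to 38.6). H3K4me1 overlapped 44 of these 48 in an arm or both, or 91.7% (80.4 to 96.7), and 49 of the 57 with FLAG, or 86.0% (74.7 to 92.7), so its share was alike in both. The split by CpG content was made after the values had been seen. The share among common regions without FLAG moved with the peaks kept. It was 7.11% (5.53 to 9.10) of 802 with the 20000 highest-scoring peaks, 9.21% of 380 with summit windows and 20.4% of 108 at a summit height of at least 15. Those settings also dropped or shortened FLAG peaks, so regions with a FLAG peak in the full lists could be among them. At a BRG1 score of at least 100, where every FLAG peak was kept, the share was 60% of 20. With FLAG the share was 0.656%, 0.617%, 0.720% and 0.335% under these settings, and the intervals of both sets did not overlap in any of them.

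In common BRG1 the lack of H3K27ac was also seen at like BRG1 height. With 12 to 14 tags, 17 of 51 CpG-rich promoter regions of common members had H3K27ac in neither arm, or 33.3% (22.0 to 47.0), against 1.5% (0.911 to 2.46) of 1000 with FLAG. With 15 to 19 tags it was 34.4% (20.4 to 51.7) of 32 against 0.591% (0.346 to 1.01) of 2200. The single-arm classes differed less. In NanogBiD-only BRG1 with 8 to 11 tags, 24.4% (16.2 to 34.9) of 78 members and 7.61% (4.67 to 12.2) of 197 regions with FLAG had H3K27ac in neither arm, but with 12 to 14 tags the intervals overlapped, at 14.3% (4.98 to 34.6) of 21 and 10.1% (5.0 to 19.5) of 69. In NanogWT-only BRG1 with 12 to 14 tags the shares were 20.4% of 49 and 4.44% of 90, and their intervals did not overlap. Without matching on height, CpG-rich promoter regions had H3K27ac in neither arm at 27.7% of NanogWT-only and 24.8% of NanogBiD-only members, against 5.82% and 10.6% with FLAG.

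**Figure D4:**
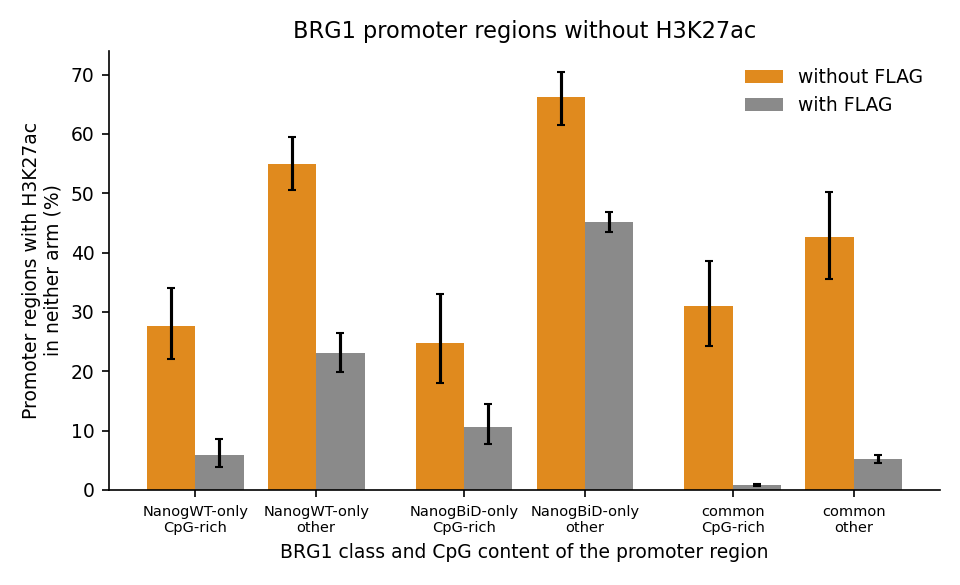
Bars give the percent of BRG1 promoter regions with an H3K27ac peak in neither arm, for CpG-rich and other promoter regions of each BRG1 class, without FLAG (orange) and with FLAG (grey), with Wilson 95% intervals. At CpG-rich promoters of common BRG1 the values are 31.0% and 0.757%.

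Windows of 101 bp at the BRG1 summit are shown for CpG-rich promoters among the strongest promoter members, one with H3K27ac in both arms (Gramd1b, which codes for a cholesterol transfer protein) and one with H3K27ac in neither (Lin7a, which codes for a scaffold protein of cell junctions and synapses). Here capitals mark CpG dinucleotides, of which there are 9 and 7, against 0 to 6 in the distal windows above. Strong promoter windows that overlapped an annotated UTR or non-coding exon are not shown.
NanogWT-only, Gramd1b promoter, chr9:40455912-40456012, plus strand: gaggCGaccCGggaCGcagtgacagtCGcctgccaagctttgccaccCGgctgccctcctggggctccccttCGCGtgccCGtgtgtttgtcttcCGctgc
NanogBiD-only, Lin7a promoter, chr10:107272069-107272169, plus strand: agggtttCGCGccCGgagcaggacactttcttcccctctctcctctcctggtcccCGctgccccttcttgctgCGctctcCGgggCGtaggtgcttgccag

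Of common members at promoters, the one with the highest score lay at Slc35f4, a gene of the solute carrier family, at chr14:49524834-49525978. Its BRG1 summits were 19 tags in NanogWT and 17 in NanogBiD, with H3K4me1 and no H3K27ac in both arms. Syndig1l, which codes for a membrane protein related to a synapse-inducing factor, had 23 tags in NanogWT and 16 in NanogBiD at chr12:84698007-84699217, with the same marks. Its region was 68.4 kb from the nearest FLAG peak and its 501 bp had a GC share of 78.6%. At the start of the lincRNA gene Gm26548, whose start lies near that of Clvs1, summits of 15 and 16 tags came with H3K4me1 in both arms and H3K27ac in NanogBiD only. All 3 of these regions were CpG-rich.

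NanogWT-only members at promoters were led by Kcnk12, a potassium channel gene, with 15 tags at chr17:87797550-87799072, H3K4me1 in both arms and H3K27ac in neither. The other two were Map7d1, a microtubule-associated protein gene, with 20 tags, and Gramd1b with 9.0 tags, and both carried both marks in both arms. NanogBiD-only members were led by Dlc1, which codes for a GTPase-activating protein, with 15 tags and H3K4me1 in NanogBiD only. Lin7a had 8.0 tags with H3K4me1 in both arms and no H3K27ac. Slitrk2, which codes for a synaptic adhesion protein, had 10 tags, and both marks were present in NanogBiD and absent in NanogWT. Of the 9 strongest promoter members, 5 had H3K27ac in neither arm.

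Other genes with a common member at a CpG-rich promoter, H3K4me1 in both arms and H3K27ac in neither were named after their values had been seen, as those next in order of the lower of their BRG1 scores in both arms. Dnajc6, which codes for auxilin, an uncoating factor of clathrin vesicles, had summits of 13 tags in NanogWT and 10 in NanogBiD. Gprin1, a regulator of neurite outgrowth, had 14 and 13, and Amer3, a gene related to an inhibitor of Wnt signalling, had 17 and 9.0. Fgf12, an intracellular regulator of sodium channels, had 17 and 13 tags, and Gpr158, a G protein-coupled receptor of neurons, had 14 and 12. Cartpt, a neuropeptide gene, had 16 tags in NanogWT and 15 in NanogBiD, and Slc12a5, the potassium-chloride cotransporter of neurons, had 19 and 15. Lin28b, an RNA-binding regulator of let-7 miRNAs, had 10 tags in NanogWT and 9.0 in NanogBiD and lay 90.8 kb from any FLAG peak.

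Consensus letters were counted in the 101 bp around the summit and, for comparison, in 101 bp lying 1 kb downstream, on chromosomes 1 to 19 and X. The AP-1 letters TGANTCA were found at 6.37% (5.43 to 7.46) of NanogWT-only, 8.41% (7.40 to 9.54) of NanogBiD-only and 6.29% (4.65 to 8.45) of common members, and at 3.18%, 2.76% and 2.52% of windows 1 kb away. AP-1 letters were thus more frequent at the summits of members than nearby. With FLAG the shares at the summit were 6.31%, 10.3% and 8.76%, over all BRG1 regions 9.15%, and at all annotated start sites 2.15%.

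The homeobox letters TAATGG, a core that NANOG is known to bind, were not more frequent at the summits of members than nearby. They were found at 4.22% (3.52 to 5.07) of NanogBiD-only members and 4.19% (3.48 to 5.02) of windows 1 kb away. In NanogBiD-only regions with FLAG the shares were 7.97% (7.64 to 8.31) and 4.10%. In NanogWT-only members they were 1.66% at the summit and 3.86% nearby, and in common members 1.89% and 2.83%. With FLAG these 2 classes had no excess at the summit either, at 2.37% and 3.62% nearby in NanogWT-only regions and 3.46% and 3.81% in common ones. With promoters included, members and regions with FLAG thus differed in this excess in NanogBiD-only BRG1 alone. Away from promoters, summits in common BRG1 differed too, at 1.94% (0.890 to 4.16) of members and 5.03% (4.66 to 5.44) with FLAG. Nearby windows were not counted for distal regions alone. Over all BRG1 regions 5.31% of summit windows held these letters, and at all start sites 2.33%.

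The octamer ATGCAAAT was found at 1.61% (1.20 to 2.17) of NanogBiD-only members and at 0.384% (0.209 to 0.705) of windows 1 kb away. It was thus more frequent at the summits of this class, though less than with FLAG, at 2.76% (2.56 to 2.97). In NanogWT-only members it was found at 3 of 2230 summits, or 0.135% (0.0458 to 0.395), against 0.628% (0.374 to 1.05) nearby, and in common members at 4 of 636, or 0.629%. The share over all BRG1 regions was 1.94% and at all start sites 0.398%.

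**Figure D5:**
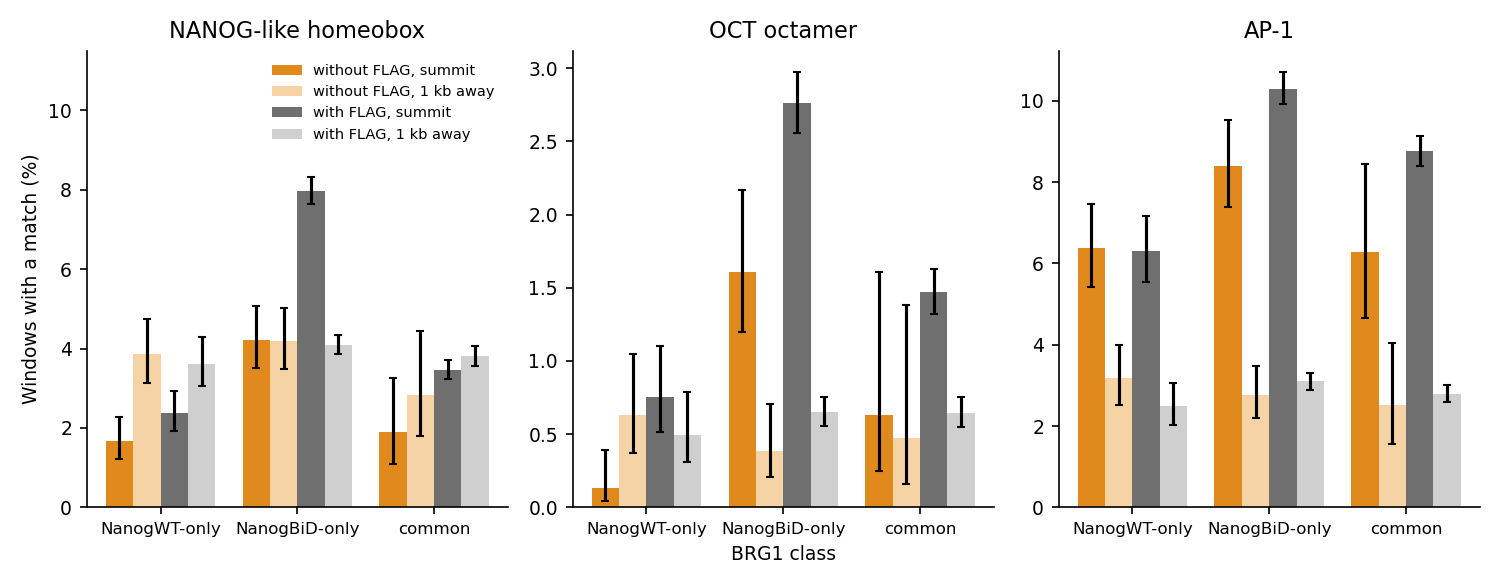
Bars give the percent of 101 bp windows that hold the NANOG-like homeobox, octamer or AP-1 letters, at the BRG1 summit and 1 kb away, for regions without FLAG (orange) and with FLAG (grey) in each BRG1 class, with Wilson 95% intervals. The homeobox letters reach 4.22% at the summit and 4.19% nearby in NanogBiD-only members, against 7.97% and 4.10% with FLAG, and each panel has its own y axis.

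Among the other motifs, the KLF/SP letters GGGCGGG were found at 6.13% (4.52 to 8.27) of common members, at 7.51% of common regions with FLAG and at 9.37% of all start sites. CTCF, the insulator protein, has a longer motif, and matches to its consensus were found at 7 of 636 common members, or 1.10% (0.534 to 2.25), against 0.187% (0.140 to 0.25) with FLAG and 0.193% over all BRG1 regions. Of the 7, 6 were away from promoters. When the window was narrowed to 25 bp on each side, only 0.157% of common members held a match, so most of these matches lay beside the summit. SOX letters ACAATGG were found at 0.942%, 1.31% and 0.157% of NanogWT-only, NanogBiD-only and common members, against 1.33%, 2.75% and 1.31% with FLAG. A match to these letters is a description of sequence, not evidence of a bound factor.

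By gene, 1233 of 21938 protein-coding genes (5.62%) had a member at a promoter, of which 540 had NanogWT-only, 427 NanogBiD-only and 299 common BRG1 there. For 575 of these genes (46.6%) no FLAG peak lay within 2 kb of any of their start sites, and the others had one at the same or another start site. Gene lists were set beside this background of 5.62% and none was tested. Among 28 BAF complex genes 5 had a member: Actl6b, a neuronal BAF subunit, with summits of 10 tags in NanogWT and 9.0 in NanogBiD, Bcl11a and Smarcd3 with NanogWT-only BRG1 of 18 and 14 tags, Pbrm1 with NanogBiD-only BRG1 of 8.0 tags, and Smarcc2 with 12 tags in each arm. Of 28 pluripotency genes 2 had a member, Mycn with 10 tags in NanogBiD only and Sox15 with 19 in NanogWT only. Of 31 fibroblast and mesenchymal genes 3 had one, which were Twist2 with 14 tags in NanogWT only and the matrix genes Col3a1 and Fn1 with 12 and 10 tags in NanogBiD only. A member at a promoter did not mean a gene without NANOG. BRG1 with FLAG lay at a promoter of 30 of the 31 fibroblast genes, 12 of the 28 pluripotency genes and 25 of the 28 BAF genes. No FLAG peak at any promoter was the case for 1 of the 3 named fibroblast genes, Col3a1, for 1 of the 2 pluripotency genes, Sox15, and for 3 of the 5 BAF genes, Actl6b, Smarcd3 and Smarcc2.

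Over all protein-coding genes 56.3% had BRG1 with FLAG at a promoter. Of 92 ribosomal protein genes 80 (87.0%) had it and 2 had a member. Of 40 proteasome subunit genes 39 (97.5%) had it and 0 had a member. Of 46 mitochondrial complex I genes 1 had a member, Ndufa1, and of 78 mitochondrial ribosomal protein genes 5, among them Mrps2 with 19 tags in NanogWT and 11 in NanogBiD. The list of 397 zinc finger genes had 16 with a member (4.03%), led by Zfp651 with 15 tags in each arm. Hox genes had 3 of 39, which were Hoxd9 (common), Hoxa7 (NanogWT only) and Hoxd11 (NanogBiD only). In 20 AP-1 genes there were Fosl1 and Fosb, in 13 genes of CTCF and cohesin Stag2, in 18 epithelial genes Tjp3, and in 67 histone genes a single promoter region shared by Hist1h1d and Hist1h4f. Of these genes Hoxd9, Fosl1, Zfp651, Ndufa1 and Mrps2 had no FLAG peak at any promoter, while Hoxa7, Hoxd11, Fosb, Stag2 and Tjp3 had one.

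Olfactory receptor genes, silent in fibroblasts, had a member at 4 of 1135 (0.352%) and BRG1 with FLAG at 20. Members lay at 42 of 2202 microRNA genes (1.91%), 25 of 1507 small nucleolar RNA genes (1.66%) and 13 of 1383 small nuclear RNA genes (0.940%). The microRNA genes included Mir7b, with common BRG1 of 22 tags in NanogWT and 16 in NanogBiD, and Mir193a, with 14 tags in NanogWT only. Many of these short genes lie within or beside longer genes, and a promoter region can belong to either.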

How the data were processed

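CUT&Tag peak lists of 8 libraries were analysed, 4 targets in each of 2 arms. Per the methods and the submitters' processing notes, the authors trimmed reads with Trim Galore 0.6.4, aligned them to mm10 with Bowtie2 2.4.5, filtered them with SAMtools 1.16.1 and called peaks with MACS 1.4.2. The score column of the deposited peak lists is the significance score of the peak caller. The signal column of the deposited summit lists is the tag pileup at the summit, which the authors did not scale to depth. Depth is not in the files, and a list from a deeper library can hold more peaks. More FLAG peaks lower the number of regions without FLAG, and more BRG1 peaks can raise it.

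Peaks of the FLAG and BRG1 lists were merged when they overlapped or touched, and marks were assigned by an overlap of at least 1 bp. Promoters were 2 kb either side of start sites of the GENCODE M21 annotation. Sequence was read from GRCm38.p6, the assembly of mm10. For common regions the summit of the arm with the higher pileup was used. Regions were named as the 3 distal and 3 promoter members of each class with the highest BRG1 score, on chromosomes 1 to 19 and X except 18, and up to 6 genes per list by BRG1 score. Members, lists and rules were chosen with earlier results of these data known. Coordinates of regions run from the first to the last base. Classification was tested on simulated data, where 0 of 3741 regions were given a wrong class. Simulated peaks of a region always overlapped and regions lay far apart, so touching peaks and near misses were not tried. Python 3.11.15 with pandas 2.3.3 and pysam 0.24.0 was used. Alternatives were other score, height, merging, distance, promoter and window settings.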

Additional observations from a re-analysis of the deposited data

How the results depend on the processing

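No paired analysis was possible because the labels give no replicate numbers and each group had 1 library. Of 113 alternative values of the main results, 59 stayed within the interval of the main value (or within 1.5 times a count), 49 moved (26 upwards and 23 downwards) and 5 turned direction; the cause was not tested. Standard chromosomes, merging across gaps of 500 bp, leaving out members with FLAG within 1 kb and counting marks within 100 bp of the BRG1 summit (the last added after the data had been seen) moved none of these. A score of at least 100 in every list, the 20000 highest-scoring peaks and a summit height of at least 15 also dropped FLAG peaks. Summit windows shortened them. Under these settings, regions with a FLAG peak in the full lists could count as without FLAG, so their values below are not those of the members alone. In the order NanogWT-only, NanogBiD-only and common, the numbers of regions were 637, 869 and 259 at a score of at least 100 in every list, 160, 99 and 46 with that minimum for BRG1 alone, 5060, 1132 and 1531 when each list was limited to its 20000 highest-scoring peaks, 6389, 7639 and 1283 with windows of 100 bp either side of summits, and 798, 522 and 204 at a summit height of at least 15. The shares at promoters in percent were 56.7, 34.9 and 73.0 at a score of 100, 53.1, 43.4 and 69.6 with that minimum for BRG1 alone, 61.2, 40.6 and 73.0 at a height of 15, and 23.7, 16.0 and 46.4 with promoters of 1 kb. With the 20000 highest-scoring peaks they were 53.8 in NanogWT-only and 72.4 in common regions, and with summit windows 36.7 and 27.6 in NanogWT-only and NanogBiD-only regions. H3K27ac gained minus lost stayed negative in NanogWT-only regions under all 9 alternatives, with -9.55 points for the 20000 highest-scoring peaks and -1.78 for summit windows against -5.28. It stayed positive in NanogBiD-only regions under all 9, with 4.03 at a score of 100, 16.16 with that minimum for BRG1 alone, 11.31 for summit windows and 9 at a height of 15, against 7.29. In common regions it turned to -0.98 with the 20000 highest-scoring peaks and to -0.98 at a height of 15. For H3K4me1, whose alternatives were added after the data had been seen, gained minus lost in NanogWT-only regions was -6.25 at a BRG1 score of 100, -0.02 with the 20000 highest-scoring peaks, -13.63 for summit windows and -20.18 at a height of 15, against -17.54. In NanogBiD-only regions it turned to 4.04 at a BRG1 score of 100 and to 5.48 with the 20000 highest-scoring peaks, and was -8.86 at a score of 100 in every list and -11.88 at a height of 15, against -2.53. In common regions it turned to 5.55 with the 20000 highest-scoring peaks and was -10.04 and -10.29 at a score of 100 and a height of 15, against -5.49. The share of CpG-rich promoters of common members with H3K27ac in neither arm, 31.0%, was between 24.4% and 33.6% under 4 alternatives and moved to 60% at a BRG1 score of 100, 7.11% with the 20000 highest-scoring peaks, 9.21% for summit windows and 20.4% at a height of 15, all 8 chosen after the data had been seen. Of 120 alternative values of the mark shares 65 moved, 53 of them upwards. H3K27ac in NanogWT ranged from 27.4% to 61.9% in NanogWT-only, from 11.6% to 33.3% in NanogBiD-only and from 34.8% to 78.1% in common members, and in NanogBiD from 23.2% to 57.9%, 18.6% to 49.5% and 39.1% to 77.1%. H3K4me1 in NanogWT ranged from 36.2% to 70.0%, 19% to 62.6% and 41.5% to 76.1%, and in NanogBiD from 35.7% to 63.7%, 24.5% to 66.7% and 47.0% to 71.7%. Members had H3K27ac less often than regions with FLAG in 55 of 60 such comparisons and H3K4me1 in 51 of 60. The narrower motif window lies within the wider one, so its shares could only fall or stay equal, and 13 of 15 moved. Depth was not scaled, and which FLAG peaks a deeper NanogWT library would add cannot be known from these lists.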
